A study of Mus musculus with 4 samples.

Results

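C-type lectin receptors are the sugar- and lipid-binding surface proteins with which myeloid cells sense microbes and dying cells. The genes described are 10 that were listed by name: Clec4a1, Clec4a2, Clec4a3, Clec4d, Clec4e, Clec7a, Clec12a, Clec10a, Mgl2 and Cd209a. Of these, 9 were among the 27998 features counted, and all 9 had unique molecular identifier (UMI) counts in every library. Clec7a, which encodes the beta-glucan receptor dectin-1, carries the biotype polymorphic pseudogene in the GENCODE vM21 annotation and was not analysed here.

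Bone marrow of 4 chimeric mice was profiled by droplet-based 3′ single-cell RNA sequencing, with 1 library per mouse, 2 labelled Idh1-WT and 2 labelled Idh1-R132H. In both groups the donor marrow carried an EYFP reporter switched on by 5 days of tamoxifen, and in the Idh1-R132H group the same treatment recombined a heterozygous Idh1 R132H allele, the cancer-associated change in the cytosolic isocitrate dehydrogenase. EYFP-positive lineage-negative cells were transplanted 2 weeks later into irradiated recipients without helper marrow, and the chimeric marrow was taken 16 weeks after that. From each mouse, 4000 cells of each of 3 EYFP-positive sorts were pooled into 1 tube: CD45.1-positive total cells, lineage-negative cKit-positive cells, and lineage-negative Sca1-positive cKit-positive cells. The recombinase driver, the age of the mice, and whether the mice of a group had separate donors are not given in the sources used here, so p-values measure the spread between these libraries. The 3′ counts do not show the Idh1 allele.

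The libraries held between 40364701 and 56353466 UMIs, and 15943 cells were kept, between 3505 and 4426 per library with medians of 7228 to 9636 UMIs. Before the tests, 337 barcodes were dropped that another library held with at least 10 times the UMIs. Idh1-WT 1 and Idh1-R132H 1 shared 345 barcodes, and 327 of these held a median of 2.16% of the UMIs of the Idh1-R132H 1 cell in Idh1-WT 1. With the shared barcodes kept, no called class difference of a lectin gene was lost. Cells were put in classes by 18 sets of marker genes that contain no C-type lectin gene, which named 11655 cells (73.1%). The classes are called by the name of their markers: 2207 granulocyte-monocyte progenitor-, 824 monocyte-committed progenitor-, 765 monocyte-, 92 Ly6c-low monocyte-, 1277 neutrophil precursor-, 1202 neutrophil-, 111 conventional dendritic- and 120 plasmacytoid dendritic-like cells, besides stem, lymphoid and other lineages. The suffix "-like" is left out below. UMIs were summed per library and class and are given as CPM, the usual scaling of a count by the total UMIs of its class and library, in the order Idh1-WT 1, Idh1-WT 2, Idh1-R132H 1, Idh1-R132H 2. In a 3′ library a CPM compares 1 gene between classes, and levels of different genes are not compared.

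The receptors signal in opposite directions. Clec4a2 and Clec12a carry an inhibitory tyrosine motif that recruits the phosphatases Ptpn6 and Ptpn11. Clec4d and Clec4e (Mincle) have no signalling motif of their own and couple to the Fc receptor gamma chain Fcer1g, which activates the kinase Syk and, through Card9, Bcl10 and Malt1, inflammatory transcription. Clec10a and Mgl2 bind terminal galactose and N-acetylgalactosamine, and Cd209a is a mouse relative of the human dendritic cell receptor DC-SIGN. Clec4a1 and Clec4a3 are close relatives of Clec4a2.

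**Figure D1:**
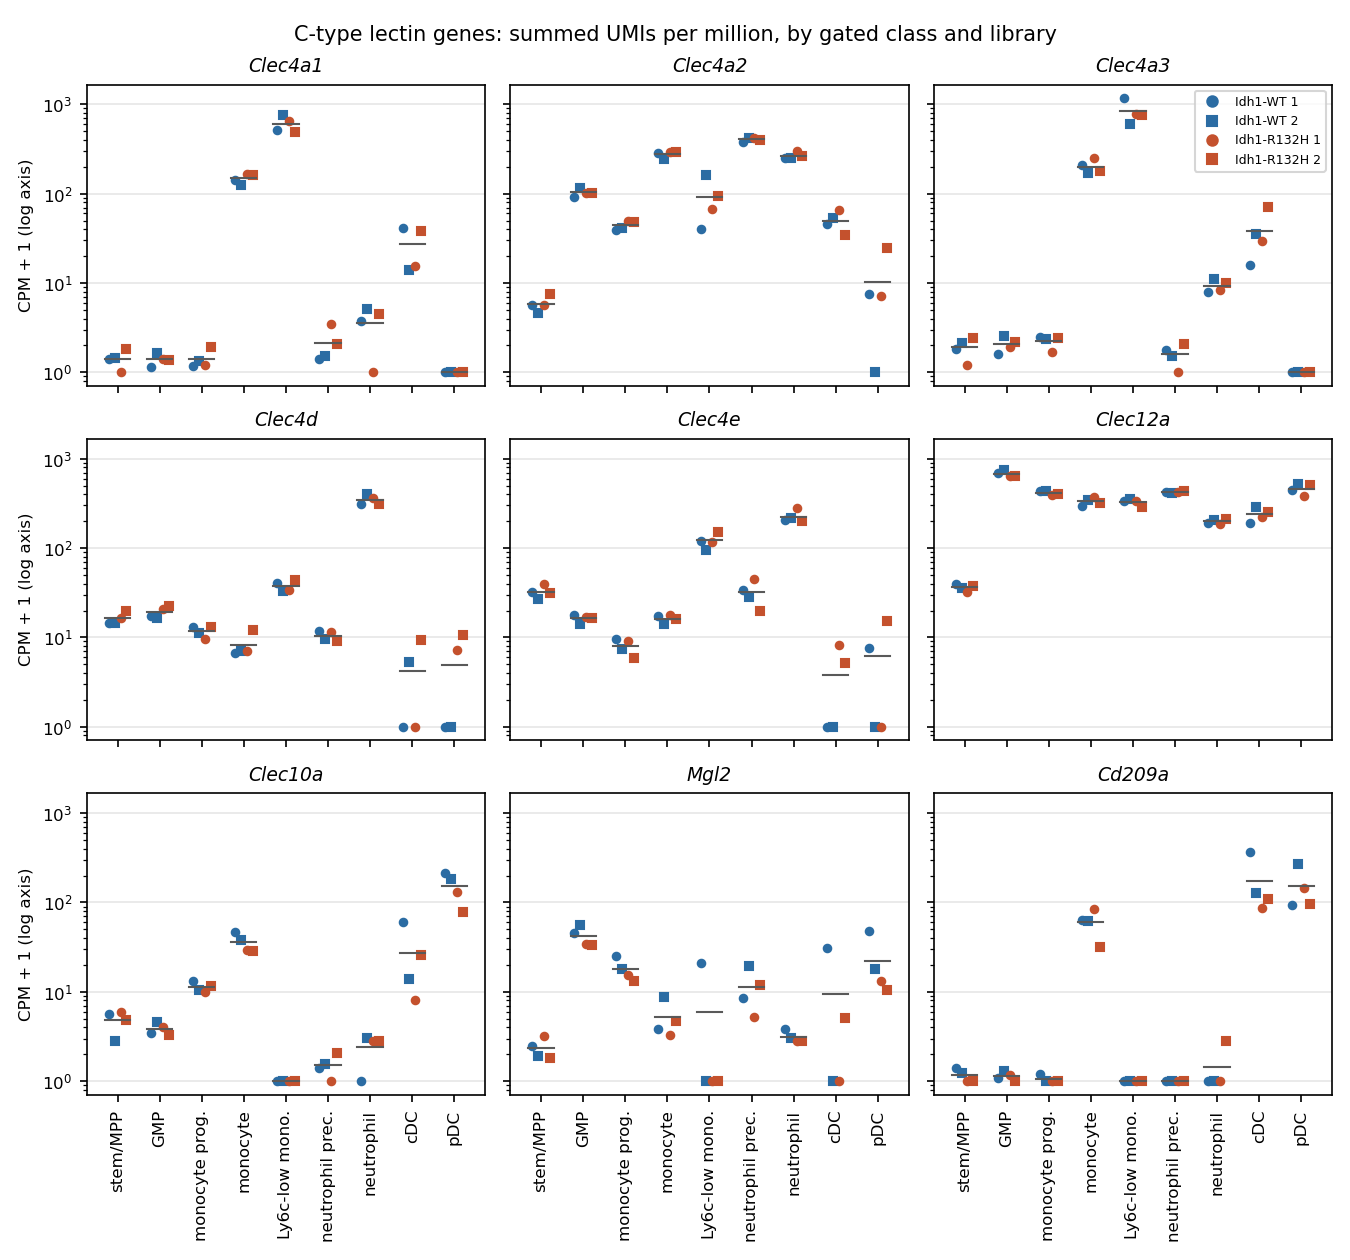
CPM + 1 on a log axis for the 9 measured lectin genes in 9 gated classes; each point is 1 library (blue Idh1-WT, orange Idh1-R132H) and each line the mean of 4. Clec4a1 and Clec4a3 were high in both monocyte classes, Clec4d and Clec4e in neutrophils, and Clec12a and Mgl2 in granulocyte-monocyte progenitors.

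Genes of 1 chromosomal cluster were high in different classes. On chromosome 6 of GRCm38 (mm10), Clec4a1 lies at 122921848-122934619 and Clec4a3 at 122952515-122969875, followed by Clec4a2 at 123106428-123143999 and Clec4d at 123262111-123275265, all on the plus strand. Clec4e lies next to Clec4d on the minus strand at 123281789-123289870, and Clec12a stands apart at 129342691-129365303. The 250 bases before the RefSeq start are shown for Clec4a1 (chr6:122921598-122921847, plus strand) and Clec4a3 (chr6:122952265-122952514, plus strand), which were high in monocytes, and for Clec4d (chr6:123261857-123262106, plus strand) and Clec4e (chr6:123289872-123290121, minus strand), which were high in neutrophils. They come from the RefSeq table of GRCm38.p6, and none overlaps an annotated exon of a listed C-type lectin gene. Exons of other genes were not checked. Clec4a3 has another RefSeq start, whose window (chr6:122952394-122952643) does overlap such an exon and is not shown. Capitals mark a match to TTGCNNAA, a C/EBP-type motif read on either strand.
Clec4a1: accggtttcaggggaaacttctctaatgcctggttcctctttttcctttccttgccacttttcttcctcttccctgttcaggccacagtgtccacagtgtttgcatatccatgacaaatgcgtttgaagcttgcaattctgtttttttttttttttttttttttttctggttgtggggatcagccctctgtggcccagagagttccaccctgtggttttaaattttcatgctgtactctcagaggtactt
Clec4a3: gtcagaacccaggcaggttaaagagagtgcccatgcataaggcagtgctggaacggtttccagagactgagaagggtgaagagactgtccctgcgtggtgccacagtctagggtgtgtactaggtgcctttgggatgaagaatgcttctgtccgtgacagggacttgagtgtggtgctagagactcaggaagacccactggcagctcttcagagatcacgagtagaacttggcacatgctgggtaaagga
Clec4d: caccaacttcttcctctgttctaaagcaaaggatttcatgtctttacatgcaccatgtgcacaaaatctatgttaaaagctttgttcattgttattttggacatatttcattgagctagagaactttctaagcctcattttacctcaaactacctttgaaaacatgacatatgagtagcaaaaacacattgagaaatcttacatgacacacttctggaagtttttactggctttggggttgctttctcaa
Clec4e: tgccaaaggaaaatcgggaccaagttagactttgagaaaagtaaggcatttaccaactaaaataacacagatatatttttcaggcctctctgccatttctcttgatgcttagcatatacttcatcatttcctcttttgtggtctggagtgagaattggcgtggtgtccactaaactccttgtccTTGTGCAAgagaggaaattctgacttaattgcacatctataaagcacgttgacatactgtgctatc
Of 9 genes of the list with a promoter entry, Clec7a included, 2 held TTGCNNAA in this window, Clec4e at 66 bases before the start and Clec12a at 140, against 9.57% of all 32536 RefSeq promoters. The Clec12a window (chr6:129349994-129350243) lies inside the gene as placed above and overlaps an annotated exon of a listed C-type lectin gene. The PU.1-type letters GAGGAAGT were in none of the 9 and in 2.45% of all promoters. The shorter GGAAGT, which GAGGAAGT contains, was in 4 of the 9 and in 19.8% of all. Of these 4, the windows of Clec4a2 and Mgl2 overlap such an exon too. These matches describe letters and do not show a bound site.

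Clec4a1 and Clec4a3 were genes of the monocyte classes: monocytes held 68.1% of all Clec4a1 UMIs and Ly6c-low monocytes 13.9%, and for Clec4a3 the shares were 64.5% and 14.6%. Such shares of all UMIs also depend on how many cells of a class were sorted and on their depth. Clec4a1 stood at 142, 123, 164 and 159.9 CPM in monocytes (mean 147 ± 18.8, SD, n = 4) and at 0.151, 0.627, 0.428 and 0.38 CPM in granulocyte-monocyte progenitors. No library overlapped between the classes, and the monocyte level was 394-fold higher (95% counting interval 248 to 669). In edgeR's quasi-likelihood test the log2 difference was 8.4 (SE 0.169, FDR 1.54e-88). Clec4a3 stood at 206, 168, 247 and 179.7 CPM in monocytes and at 0.604, 1.57, 0.942 and 1.22 CPM in granulocyte-monocyte progenitors, a log2 difference of 7.46 (SE 0.131, FDR 5.53e-88). Monocyte-committed progenitors, which already hold monocyte genes such as Irf8 and F13a1 beside progenitor genes, were no closer to monocytes: Clec4a1 averaged 0.423 CPM there and Clec4a3 1.24 CPM. A Clec4a1 UMI was seen in 408 of 765 monocytes (53.3%, exact binomial 95% interval 49.7 to 56.9) and in 17 of 2207 granulocyte-monocyte progenitors, although the progenitors were deeper, with a median of 21274 UMIs per cell against 5268.

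Both genes were higher again in Ly6c-low monocytes, the patrolling form. The 92 such cells came as 18, 12, 21 and 41 per library, too few for the test, so these values are a description. Clec4a1 stood there at 515, 763, 649.7 and 483 CPM and Clec4a3 at 1169.5, 604, 783 and 764 CPM. Every library lay above every monocyte value, by 3.73-fold for Clec4a1 (counting interval 3.12 to 4.44) and 4.12-fold for Clec4a3 (3.56 to 4.76). Clec4a2 went the other way, at 39.6, 159, 66.6 and 93.7 CPM from 24 UMIs, 0.306 of its monocyte level (0.196 to 0.458). Clec10a and Cd209a had no UMI in any of the 92 cells, at least 3.16-fold and at least 5.37-fold lower than in monocytes against a floor of 3 counts over the 4 libraries.

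In neutrophils and dendritic cells the same pair was low. Clec4a3 had 19 UMIs in 1202 neutrophils, at 6.98, 10.2, 7.29 and 8.90 CPM, 24.4-fold below monocytes in CPM (15.5 to 40.6) and by a smaller log2 difference of 3.84 with TMM factors (SE 0.231), and Clec4a1 had 6 UMIs. Conventional dendritic cells held 40.1, 13.1, 14.4 and 37.4 CPM of Clec4a1 and 15, 34.8, 28.8 and 70.6 CPM of Clec4a3, and 11 of the 111 cells carried each gene. The log2 differences of monocytes from conventional dendritic cells were 2.45 (SE 0.257, FDR 5.01e-15) and 2.34 (SE 0.221, FDR 4.41e-17). In the 120 plasmacytoid dendritic cells neither gene had a UMI, which allows up to 3.03% of cells with a UMI at their median depth of 4225.5 UMIs and sets no limit on cells that express the genes at low level, and monocytes were at least 34.6-fold higher for Clec4a1 and at least 46.5-fold higher for Clec4a3.

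Clec4a2 followed a different course and was shared by both lineages. Neutrophil precursors held the most, at 375, 415, 421 and 401 CPM (mean 403 ± 20.4), with a UMI in 980 of 1277 cells. Monocytes stood at 281, 245, 295 and 289 CPM and neutrophils at 249.7, 247, 299 and 263 CPM, and these ranges overlapped. Granulocyte-monocyte progenitors stood below all 3, at 91.5, 114, 102 and 102 CPM, and monocyte-committed progenitors lower still, at 38.6, 40.8, 48.7 and 47.5 CPM. Monocytes differed from the granulocyte-monocyte progenitors by 1.4 on the log2 scale (SE 0.0615, FDR 5.44e-48) and from the monocyte-committed progenitors by 2.65 (SE 0.0771, FDR 8.13e-69). The relation of monocytes to neutrophils depended on the scaling: the log2 difference was -0.70 with TMM factors (FDR 1.43e-12), -0.94 with RLE factors and 0.07 with library totals (FDR 0.482). In that comparison the median over all genes was 0.105 with TMM, -0.127 with RLE and 0.867 with library totals, and 50.8%, 37.2% and 80.3% of called genes were higher in monocytes. Neutrophil precursors were above neutrophils by 0.61 (SE 0.0749, FDR 2.27e-12), but by -0.21 (FDR 0.279) when clusters replaced the gates. Of the 50-base words in Clec4a2 transcripts, 6.69% also occur in another gene, most of them in Clec4a4.

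Clec4d and Clec4e, the activating pair, were high in neutrophils. Clec4d stood at 309.7, 399.5, 359 and 308 CPM in neutrophils (mean 344 ± 44.0) and at 10.6, 8.72, 10.4 and 8.20 CPM in their precursors. The groups did not overlap, and the neutrophil level was 36.1-fold higher, a log2 difference of -5.17 for precursors minus neutrophils (SE 0.138, FDR 4.88e-58). Clec4e stood at 204, 214, 277 and 201 CPM in neutrophils and at 32.7, 27.2, 44.5 and 18.9 CPM in precursors, 7.58-fold apart with no overlap (log2 difference -2.89, SE 0.122, FDR 1.06e-46). Monocytes were low in both, with Clec4d at 5.75, 6.09, 6.09 and 11.2 CPM and Clec4e at 16.3, 13.1, 16.8 and 14.9 CPM. In CPM, which scales by library totals, neutrophils exceeded monocytes 44.6-fold for Clec4d and 14.6-fold for Clec4e. With TMM factors the log2 differences of monocytes minus neutrophils were larger, -6.26 (SE 0.158) and -4.61 (SE 0.153).

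Neutrophils are shallow cells, with a median of 1612 UMIs, and the share of cells carrying these genes reflects that. A Clec4d UMI was found in 545 of 1202 neutrophils (45.3%, interval 42.5 to 48.2) and a Clec4e UMI in 362 (30.1%, 27.5 to 32.8). After thinning every cell to 1000 UMIs the shares were 30.5% and 19.6%. In mature B cells, of like depth (median 1721 UMIs) and taken as a measure of free RNA, 3 of 421 cells (0.713%) carried each gene. Clec4d was also found outside the myeloid lineage: erythroid progenitors stood at 49.2, 71.7, 58.3 and 71.2 CPM, second among the tested classes, with a UMI in 267 of 549 cells. Megakaryocyte progenitors followed at 21.9, 23.2, 24.3 and 53.5 CPM, of which the last, Idh1-R132H 2, stood apart. Stem and multipotent progenitors held Clec4e at 31.1, 26.0, 38.2 and 30.1 CPM, a range that overlapped that of neutrophil precursors. Mature B cells averaged 3.03 CPM of it. Droplets without a cell, where all RNA is free, held 19.4 to 38.1 CPM of it. In Ly6c-low monocytes Clec4e stood at 119, 95.3, 117 and 151 CPM from 37 UMIs, 8.65-fold above monocytes (5.69 to 13), and Clec4d at 39.6, 31.8, 33.3 and 43.3 CPM from 11 UMIs, 5.15-fold above (2.38 to 10.2).

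**Figure D2:**
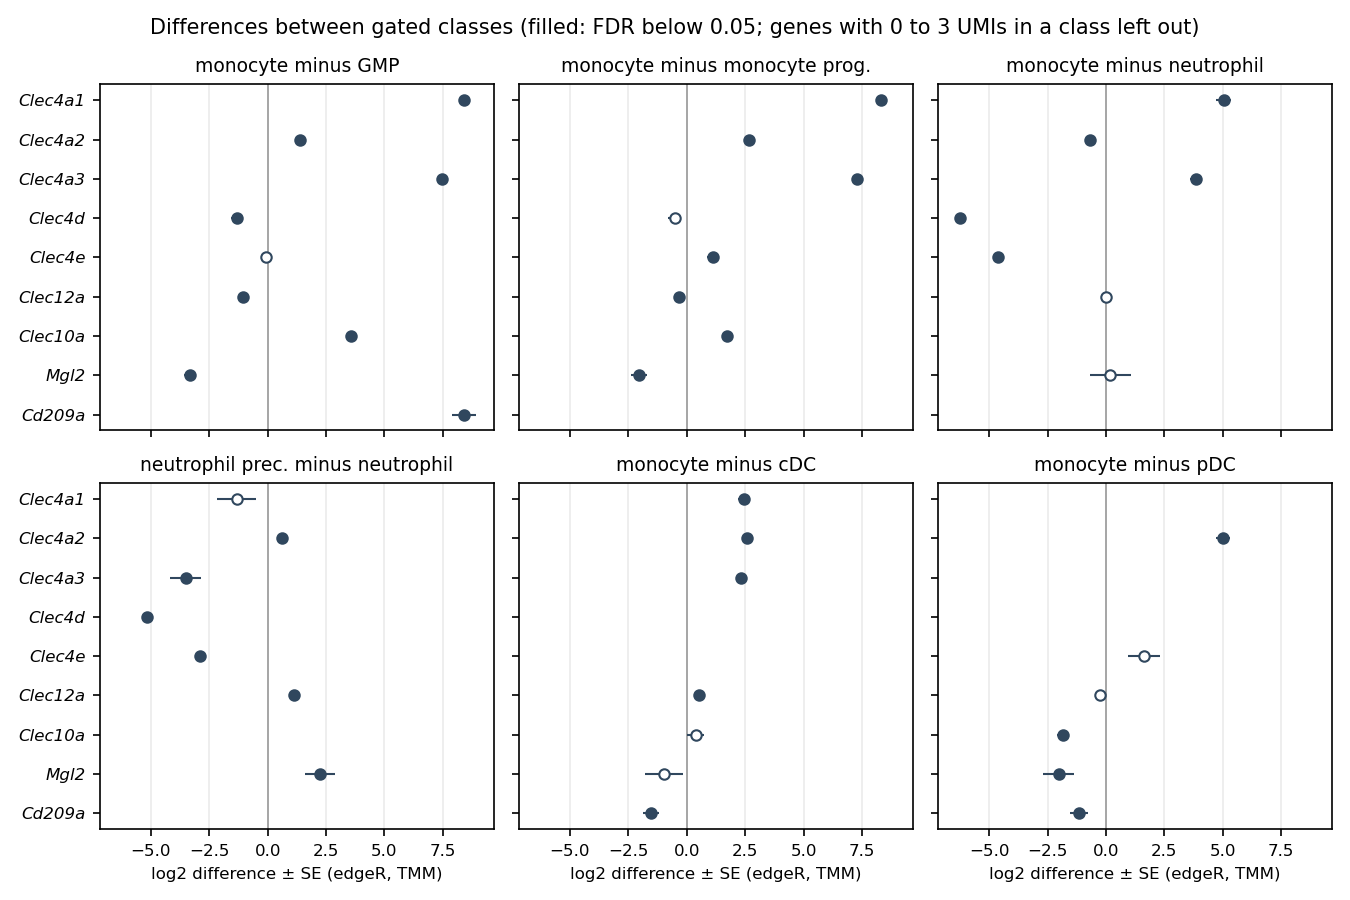
Log2 differences ± SE of the lectin genes between 6 pairs of gated classes, positive where the class named before "minus" was higher; filled points passed FDR 0.05, and genes with 0 to 3 UMIs in a class are left out. Clec4d and Clec4e lay far below 0 for monocytes minus neutrophils (-6.26 and -4.61), where Clec4a1 and Clec4a3 lay above it (5.05 and 3.84).

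Clec12a, the inhibitory receptor MICL, was a progenitor gene in this marrow as much as a gene of mature cells. Granulocyte-monocyte progenitors stood highest, at 696, 756, 638 and 634 CPM (mean 681 ± 57.5), and 2104 of 2207 of them carried a UMI. These cells, with a median of 21274 UMIs each, held 58.3% of all Clec12a UMIs, a share that also depends on their number and depth. Plasmacytoid dendritic cells followed at 444, 515, 377 and 512 CPM, then neutrophil precursors at 418, 416, 426 and 431 CPM and monocyte-committed progenitors at 438, 436, 388 and 404 CPM, 3 ranges that overlapped. Monocytes stood at 295, 348, 369 and 322 CPM, conventional dendritic cells at 190.4, 287, 223 and 253 CPM and neutrophils at 189.7, 206, 184 and 212 CPM. Stem and multipotent progenitors, at 38.4, 34.7, 31.1 and 36.6 CPM, lay below all of these.

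Clec12a was thus lower in monocytes than in granulocyte-monocyte progenitors by 1.07 on the log2 scale (SE 0.0741, FDR 9.96e-29) and lower in neutrophils than in their precursors by 1.11 (SE 0.0957, FDR 9.75e-21). Its monocyte against neutrophil difference was -0.01 with TMM (FDR 0.958), -0.25 with RLE (FDR 0.0281) and 0.76 with library totals, on a shift of all genes of the size given for Clec4a2. Against plasmacytoid dendritic cells the difference was -0.25 with TMM (FDR 0.0903), -0.33 with RLE (FDR 0.0173) and -0.48 with library totals (FDR 0.000448). Free RNA of empty droplets held 275 to 379.9 CPM of Clec12a, and 12.4% of mature B cells carried a UMI (72.6 ± 13 CPM). At 1000 UMIs per cell 6.68% of mature B cells carried one, against 16.4% of neutrophils, 28.7% of monocytes and 43.8% of granulocyte-monocyte progenitors. The CPM in stem and multipotent progenitors lies below that of mature B cells. The B cells are shallower, with a median of 1721 UMIs against 6842.5, and a given amount of free RNA weighs more in them. Whether the level in stem and multipotent progenitors is free RNA was not tested.

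Mgl2 was a gene of progenitors and was low in monocytes. It stood at 44.3, 55.3, 32.9 and 32.6 CPM in granulocyte-monocyte progenitors, at 23.9, 17.2, 14.6 and 12.2 CPM in monocyte-committed progenitors and at 2.88, 7.83, 2.29 and 3.72 CPM in monocytes, with no overlap between monocytes and either progenitor class. Monocytes were lower than granulocyte-monocyte progenitors by 3.32 on the log2 scale (SE 0.261, FDR 6.49e-17) and than monocyte-committed progenitors by 2.05 (SE 0.332, FDR 3.61e-07). Granulocyte-monocyte progenitors held 72.6% of all Mgl2 UMIs, a share that also depends on their number and depth. These UMIs were spread over 806 of 2207 cells (36.5%, interval 34.5 to 38.6), and the 5 richest cells gave 2.85% of them. Plasmacytoid dendritic cells came second, at 46.4, 17.0, 12.4 and 9.58 CPM from 14 UMIs in 9 cells, a range that overlapped the granulocyte-monocyte progenitors, and monocytes lay below them by 2.02 on the log2 scale (SE 0.669, FDR 0.0197). That call was lost without Idh1-WT 1, Idh1-R132H 1 or Idh1-R132H 2. Conventional dendritic cells averaged 8.55 CPM from 7 UMIs in 3 cells. After thinning to 1000 UMIs, 3.71% of the granulocyte-monocyte progenitors carried a UMI (2.96 to 4.59), against 0.239% of mature B cells.

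The progenitors with a Mgl2 UMI differed from the others of their gate, a split that was made after the values were seen and is given without a test. In the 806 cells Clec12a stood at 886 CPM against 541 CPM in the other 1401, and Clec4a2 at 159.6 against 63.6 CPM. The 10 granulocyte-monocyte progenitor markers, among them the granule proteases Elane, Prtn3 and Ctsg, summed to 56178 against 40599 CPM. Monocyte markers (3439.5 against 2172 CPM), neutrophil precursor markers (1202 against 821 CPM) and macrophage markers (62.7 against 23.4 CPM) were also higher. Plasmacytoid dendritic cell markers were lower (191.9 against 255.4 CPM). Conventional dendritic cell markers were lower over all cells (94.2 against 113.6 CPM), though not in Idh1-WT 2 (122.6 against 108.7). Clec4e (11.8 against 17.8 CPM) and Clec10a (1.82 against 3.35 CPM) were lower too, and Clec4d slightly higher (19.8 against 17.5 CPM). Clec12a was higher in the carrying cells of each library, with 906 against 543 and 957 against 566 CPM in Idh1-WT 1 and 2. In Idh1-R132H 1 and 2 it stood at 861 against 518 and 809.8 against 546 CPM. Clec4a2 and the summed granulocyte-monocyte progenitor markers had the same direction in all 4 libraries. The carrying cells were slightly deeper, with a median of 22693 UMIs against 20266.

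Clec10a, the close neighbour of Mgl2 on chromosome 11 (Mgl2 70130329-70137550 and Clec10a 70156197-70170834, both plus strand), had another pattern. It was highest in plasmacytoid dendritic cells, at 212, 181, 129.9 and 76.6 CPM, with 101 UMIs in 55 of 120 cells (45.8%, interval 36.7 to 55.2). Monocytes stood at 46.0, 37.4, 28.2 and 27.9 CPM, monocyte-committed progenitors at 12.4, 9.43, 8.97 and 10.6 CPM and granulocyte-monocyte progenitors at 2.42, 3.55, 3.0 and 2.28 CPM, 3 levels with no overlap. Monocytes exceeded monocyte-committed progenitors by 1.72 on the log2 scale (SE 0.184, FDR 1.37e-15) and lay below plasmacytoid dendritic cells by 1.85 (SE 0.221, FDR 1.34e-12). Conventional dendritic cells, at 60.1, 13.1, 7.19 and 24.9 CPM from 22 UMIs, were not told apart from monocytes (log2 difference 0.38, SE 0.349, FDR 0.538). The 2 genes share 50-base words, 9.02% of those of Clec10a and 13.1% of those of Mgl2, and how the counting treated reads from them is not given in the sources used here, so values of each are uncertain to that extent.

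Cd209a was carried by few cells. In the 111 conventional dendritic cells it had 140 UMIs in 18 cells, of which the 5 richest gave 57.9%, and the libraries stood at 366, 126, 86.3 and 108 CPM. In Idh1-R132H 1 all 12 UMIs came from 1 cell, whose class II genes H2-Aa, H2-Ab1 and H2-Eb1 summed to 114 CPM against 23022 CPM in the other 20 cells of that library. In plasmacytoid dendritic cells 105 UMIs lay in 30 of 120 cells, at 92.8, 272, 142 and 95.8 CPM, and in monocytes 294 UMIs lay in 63 of 765 cells (8.24%, interval 6.39 to 10.4), at 63.3, 60.9, 83.0 and 30.4 CPM, with up to 31 UMIs in 1 cell. Monocytes were below conventional dendritic cells by 1.53 on the log2 scale (SE 0.357, FDR 0.00565). With clusters in place of gates the value was 1.08 (FDR 0.235). The call was also lost without Idh1-R132H 2 (-1.48, FDR 0.0949) and with a larger margin between marker scores (-1.45, FDR 0.0852). Without Idh1-WT 1 the log2 difference was -0.93 (FDR 0.00751). Monocytes were below plasmacytoid dendritic cells by 1.14 (SE 0.387, FDR 0.0415). That call was lost without Idh1-WT 2 (-0.75, FDR 0.328) and without Idh1-R132H 2 (-1.08, FDR 0.234). It was lost too with DESeq2 (-1.19, FDR 0.101), at most 5% mitochondrial UMIs (-0.77, FDR 0.214) and the larger margin (-1.44, FDR 0.0791). Removing cells with high doublet scores (-1.09, FDR 0.0551) or keeping only cells with Xist (-0.65, FDR 0.677) ended it as well. Elsewhere Cd209a was all but unseen, with 6 UMIs in 2207 granulocyte-monocyte progenitors, 1 in 1202 neutrophils and 0 in 1277 neutrophil precursors.

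The Cd209a-carrying monocytes held more of the conventional dendritic cell markers than the rest of their gate. This split was also made after the values were seen, and no test is given. The class II genes H2-Aa, H2-Ab1 and H2-Eb1, which load peptides for CD4 T cells, summed to 2908, 6122, 5897 and 2312 CPM in the 13, 16, 18 and 16 carrying cells and to 255, 360.1, 318 and 274 CPM in the others. In every library the carrying cells were higher. All 15 conventional dendritic cell markers summed to 12207 CPM in the carrying cells and 1372 CPM in the others, again higher in all 4 libraries. Since these 3 genes are among the 15 dendritic cell markers of the gate, the most class II-rich cells would have left the monocyte class. Clec10a was higher in the carrying cells too, at 123 CPM against 26.9, and Clec4a2 lower over all cells, at 174 against 287 CPM, though not in Idh1-WT 2 (251 against 245). The 14 monocyte markers summed to 21241 CPM in the carrying cells and 20559 in the others, and Clec12a to 341 and 334 CPM. Their depth was similar, with medians of 4814 and 5316.5 UMIs. Whether some of these droplets held 2 cells was not tested.

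**Figure D3:**
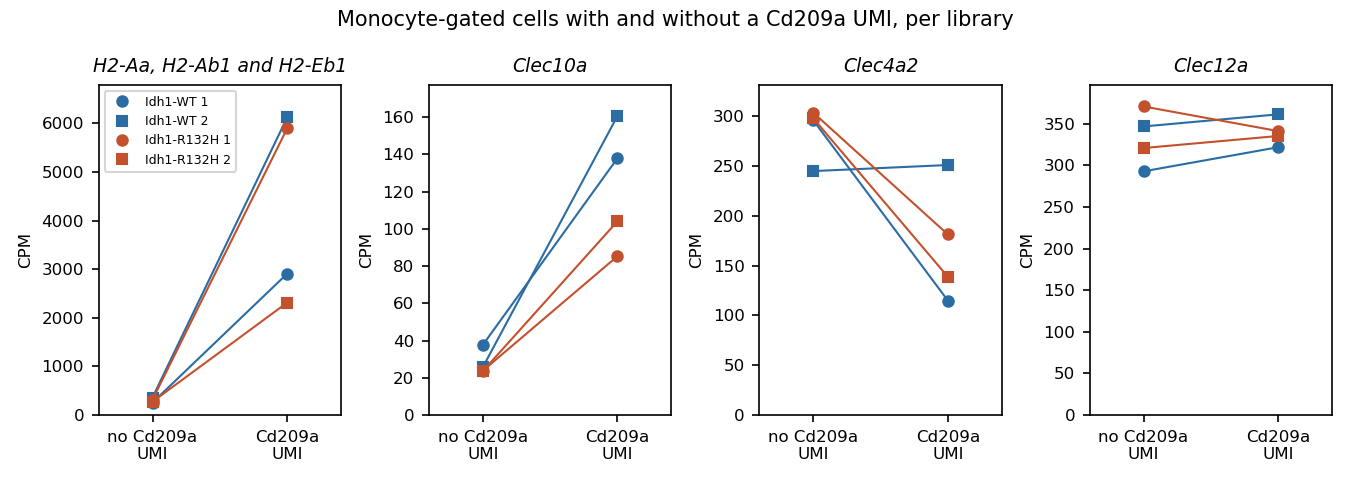
CPM summed over monocyte-gated cells without and with a Cd209a UMI in each library (points joined by a line; blue Idh1-WT, orange Idh1-R132H). The class II genes and Clec10a were higher in the carrying cells of all 4 libraries, and Clec12a showed no common direction.

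Counted over the 9 genes, monocytes differed from granulocyte-monocyte progenitors in 8, with 5 higher and 3 lower, against 65.3% of all 9195 genes tested. From monocyte-committed progenitors they differed in 8 (6 higher, 2 lower; background 59.3%), and from neutrophils in 7 (4 higher, 3 lower; background 50%). From conventional dendritic cells they differed in 6 (5 higher, 1 lower; background 17.5%) and from plasmacytoid dendritic cells in 6 (3 and 3; background 24.2%). Neutrophil precursors differed from neutrophils in 6 (3 higher, 3 lower; background 35%). For plasmacytoid dendritic cells 57.1%, 50.4% and 37.1% of called genes were higher in monocytes with TMM, RLE and library totals, on a median over all genes of 0.027, -0.039 and -0.193, and for precursors against neutrophils 46%, 32.6% and 45.3% were higher in precursors. Leaving out 1 library ended some calls against dendritic cells: Clec12a against conventional ones without Idh1-R132H 1 (FDR 0.0595), Clec4e without Idh1-WT 1 (0.0884) or Idh1-WT 2 (0.0823), and Mgl2 against plasmacytoid ones without Idh1-WT 1 (0.232), Idh1-R132H 1 (0.0734) or Idh1-R132H 2 (0.0615). Mgl2 in neutrophil precursors against neutrophils was lost without Idh1-R132H 2 (0.0652). Among the exceptions, Clec4e did not differ between monocytes and granulocyte-monocyte progenitors beyond its error (-0.06, SE 0.190, FDR 0.805), and Clec4d between monocytes and monocyte-committed progenitors had FDR 0.0977.

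Of 12 adaptors and kinases of the activating receptors listed, 11 were tested, and 8 rose and 0 fell from granulocyte-monocyte progenitors to monocytes (median log2 difference 1.15, against 0.016 over all genes), where 65.3% of all genes were called. Fcer1g differed by 3.88 and Tyrobp, the related adaptor DAP12, by 3.06, and the kinase Lyn by 2.86. From neutrophil precursors to neutrophils 7 were higher in neutrophils and 0 lower, with 35% of all genes called, among them Tyrobp (-1.61 for precursors minus neutrophils), Prkcd (-1.23) and Syk (-1.33). Of these partners, 5 were lower in monocytes than in neutrophils and 0 higher with TMM, but with library totals only Tyrobp (-0.48) and Syk (-0.96) of those 5 remained so, and Lyn, Prkcd, Vav1, Plcg2, Card9 and Malt1 were higher in monocytes. Of the 3 phosphatases of the inhibitory receptors, Ptpn6 (1.85), Inpp5d (1.32) and Ptpn11 (0.41) were all higher in monocytes than in granulocyte-monocyte progenitors.

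Of 33 other lectin genes listed, 16 were tested. Clec9a, the dead-cell receptor of cross-presenting dendritic cells, averaged 56 ± 31.2 CPM in conventional dendritic cells and 1.18 ± 1.43 CPM in monocytes (log2 difference -5.53). Cd209d, a relative of Cd209a, averaged 143 ± 72.8 CPM in plasmacytoid dendritic cells and 1.27 ± 0.812 CPM in monocytes (-6.35). Clec4n, the FcR-gamma-coupled receptor dectin-2 whose gene lies between Clec4a2 and Clec4d, averaged 9.44 ± 3.63 CPM in neutrophils and 0.0986 ± 0.197 CPM in their precursors (-6.01). In all, 10 of the 16 were higher and 4 lower in monocytes than in granulocyte-monocyte progenitors (65.3% of all genes called). In monocytes 4 were higher and 2 lower than in conventional dendritic cells (17.5% of all genes called), and 4 higher and 6 lower than in plasmacytoid ones (24.2%).

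Across 56 points, 14 classes in 4 libraries, some of the genes varied alike. The points share libraries and depth, so Pearson's r of log2(CPM + 1) is given as a description only. Clec4a1 and Clec4a3 had r = 0.86, Cd209a and Clec10a 0.78, Clec4d and Clec4e 0.70, and Clec12a and Mgl2 0.69, and the lowest value was -0.39 for Cd209a and Clec4d. Genes most like the members were sought among 4249 genes with at least 50 CPM in a class, other members left out. They were Pid1 for Clec4a1 (0.82), Gm9733 for Clec4a2 (0.89), Rac1 for Clec4a3 (0.84), Gm17619 for Clec4d (0.81) and Flot1 for Clec4e (0.80). For Cd209a it was Rnd3 (0.96), which was also among the 3 most like Clec10a (0.84). For Clec12a it was the mast cell receptor gene Milr1 (0.83), for Clec10a the lysosomal protein gene Cd68 (0.86) and for Mgl2 Tmed3 (0.77).

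Between the genotypes most of these genes did not differ detectably. The series title places the question in how mutant Idh1 affects the making of neutrophils from myeloid progenitors. Every library had 20 or more cells in 14 classes, and 56 tests of a member passed the filter on low counts there. Of these, 2 passed FDR 0.05 in edgeR, both lower in Idh1-R132H. With DESeq2, 1 passed. The share of all genes called was 0.444% in granulocyte-monocyte progenitors and 0.153% in lymphoid-primed progenitors, where the 2 calls lie. It was 0.181% in monocyte-committed progenitors, 0.335% in monocytes, 0.177% in neutrophil precursors and 0.028% in stem and multipotent progenitors. It was 0.0383% in conventional and 0.328% in plasmacytoid dendritic cells, 0.024% in erythroid progenitors, 0.362% in mature B cells, and 0% in basophil and mast progenitors and in T and NK cells.

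Mgl2 was lower in the granulocyte-monocyte progenitors of Idh1-R132H marrow. Idh1-WT libraries stood at 44.3 and 55.3 CPM (mean 49.8 ± 7.78, n = 2) and Idh1-R132H libraries at 32.9 and 32.6 CPM (mean 32.7 ± 0.200), without overlap. The log2 difference was -0.57 (SE 0.0930, FDR 0.00386), and with each library left out in turn it lay between -0.73 and -0.42, each past FDR 0.05. A Mgl2 UMI was seen in 223 of 572 and 198 of 441 Idh1-WT cells and in 180 of 553 and 205 of 641 Idh1-R132H cells. The next class, monocyte-committed progenitors, ran in the same order, at 23.9 and 17.2 against 14.6 and 12.2 CPM, but the difference of -0.64 (SE 0.196) had FDR 0.319.

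Some markers moved beside Mgl2 in this gate. The summed granulocyte-monocyte progenitor markers stood at 46794 and 48655 CPM in Idh1-WT and 46457 and 45436 CPM in Idh1-R132H. Of these 10 genes, 5 were lower and 3 higher without overlap. The 14 monocyte markers summed to 2379 and 2691 against 2746 and 2877 CPM, and the 11 macrophage markers, 1 of them at 0, to 43.6 and 49.9 against 35.6 and 28.8 CPM. The 15 conventional dendritic cell markers summed to 128 and 115 against 83.2 and 97.0 CPM, with 6 genes lower and 3 higher without overlap. Mature B cell markers (226 and 223 against 194 and 184 CPM) and neutrophil precursor markers (1009.6 and 1013 against 853 and 1003 CPM) were also lower. Lymphoid-primed progenitor markers were slightly higher, at 105.95 and 105.3 against 108.7 and 108.7 CPM. So were Ly6c-low monocyte markers (85.3 and 86.4 against 89.6 and 90.3 CPM) and plasmacytoid ones (225.8 and 215.2 against 226.2 and 250.2 CPM). In Mgl2-carrying cells the granulocyte-monocyte progenitor, monocyte, neutrophil precursor and macrophage markers had been higher, and both dendritic cell sets lower over all cells. The proportion of cells that carried Xist but nothing from the Y-linked genes also differed, at 78.1% and 55.8% in the Idh1-WT libraries against 51.2% and 38.1%. In those cells alone the difference in Mgl2 was -0.48 with FDR 0.489, and 15 genes in all were called there against 48. The share of all genes without overlap between the groups was not counted, so the counts of markers have no background. The part of these markers in the Mgl2 difference was not tested.

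**Figure D4:**
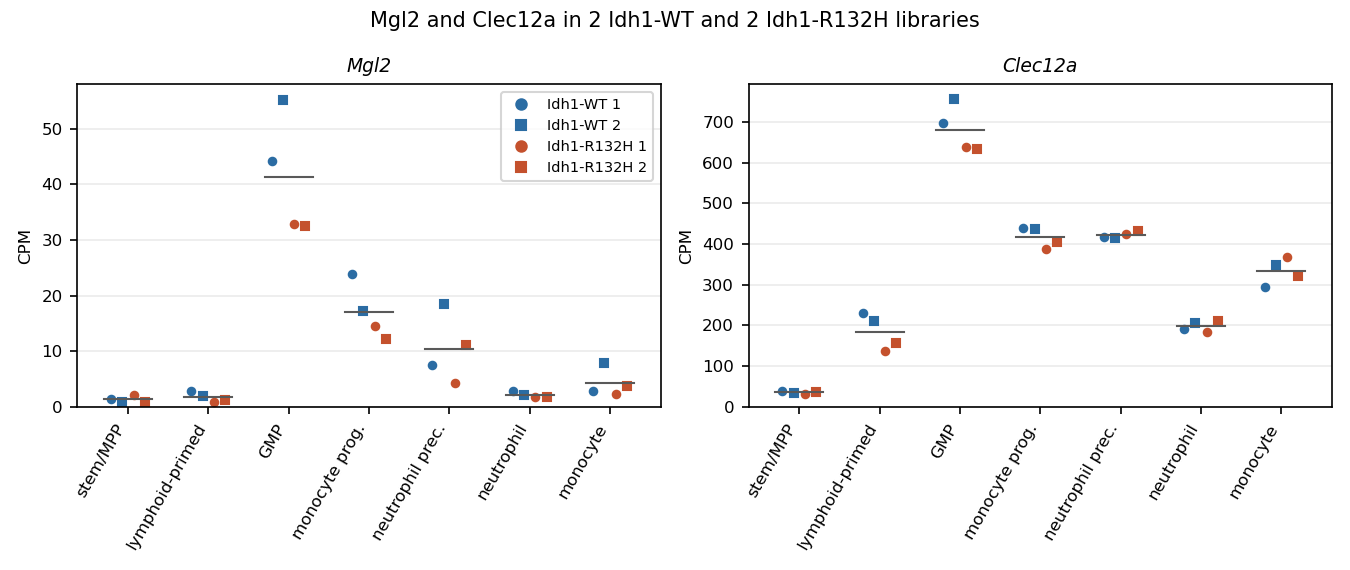
CPM of Mgl2 (left) and Clec12a (right) in 7 progenitor and myeloid classes; points are single libraries (blue Idh1-WT, orange Idh1-R132H) and lines the mean of 4. Both Idh1-R132H libraries lay below both Idh1-WT libraries for Mgl2 in granulocyte-monocyte progenitors and for Clec12a in lymphoid-primed and granulocyte-monocyte progenitors.

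Clec12a was lower in the lymphoid-primed progenitors of Idh1-R132H marrow, the progenitors marked by Dntt, Flt3 and Il7r. The libraries stood at 231 and 210.5 CPM in Idh1-WT (mean 221 ± 14.6) and at 138 and 156 CPM in Idh1-R132H (mean 147 ± 12.8), a log2 difference of -0.58 (SE 0.111, FDR 0.000303). The call was lost with clusters in place of gates (-0.34, FDR 0.753), with no margin between marker scores (-0.54, FDR 0.159), with DESeq2 (-0.58, FDR 1), in cells with Xist alone (-0.58, FDR 0.219), without Idh1-WT 1 (-0.49, FDR 0.244) and without Idh1-R132H 1 (-0.49, FDR 0.0957). The summed granulocyte-monocyte progenitor markers overlapped between the groups in this class, at 3653 and 3094 against 3223 and 3421 CPM. In granulocyte-monocyte progenitors Clec12a stood at 696 and 756 against 638 and 634 CPM, without overlap. The difference of -0.17 (SE 0.0393) had FDR 0.0543 and did not pass. It passed under 11 alternatives, DESeq2 among them (FDR 0.0477). Under the other 9 it did not, cells with Xist alone among them (-0.14, FDR 0.513). With each library left out in turn the difference lay between -0.22 and -0.12. Monocyte-committed progenitors, at 438 and 436 against 388 and 404 CPM, did not overlap either (log2 difference -0.12, SE 0.0541, FDR 0.612). In monocytes the groups overlapped, at 295 and 348 against 369 and 322 CPM (log2 difference 0.11, SE 0.0899, FDR 0.955). The genotype by class term for monocytes against granulocyte-monocyte progenitors was 0.28 (unadjusted p 0.00625, FDR 0.860 in edgeR), so a difference between the classes was not shown.

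The other genes gave values that did not pass. Clec4d in granulocyte-monocyte progenitors stood at 16.2 and 15.7 against 19.7 and 21.5 CPM (log2 difference 0.39, SE 0.110, FDR 0.147). Clec4a1 in monocytes stood at 142 and 123 against 164 and 159.9 CPM (0.30, SE 0.127, FDR 0.638). Clec10a was lower in monocytes, at 46.0 and 37.4 against 28.2 and 27.9 CPM (-0.56, SE 0.241, FDR 0.656), and in plasmacytoid dendritic cells, at 212 and 181 against 129.9 and 76.6 CPM (-0.95, SE 0.319, FDR 0.537), neither past the threshold. In the plasmacytoid gate the granulocyte-monocyte progenitor markers summed to 2692 and 2365 CPM in Idh1-WT and 10207 and 9970.5 CPM in Idh1-R132H, with 9 of 10 genes higher without overlap, while the plasmacytoid markers overlapped at 10665 to 12582 CPM. The share of all genes without overlap between the groups was not counted, so this count of markers has no background. The part of these markers in the Clec10a values was not tested. Cd209a in conventional dendritic cells was -1.27 (SE 0.539, FDR 0.689) on the few cells described above. In neutrophils, the end of the lineage named in the title, Clec4d, Clec4e and Clec12a overlapped between the groups. Clec4a2 did not overlap there, at 249.7 and 247 against 299 and 263 CPM, but its difference of 0.12 (SE 0.190) had FDR 0.991. In that class 0.0257% of all genes were called. No genotype by class term of a member passed in 54 tests with edgeR or DESeq2, and 2 had an unadjusted p under 0.05 in edgeR. Of all genes, this term was called for 0.0103% in monocytes against either progenitor class, 0.0206% against neutrophils, 0.0309% against conventional and 0.144% against plasmacytoid dendritic cells, and 0% in neutrophil precursors against neutrophils.

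**Figure D5:**
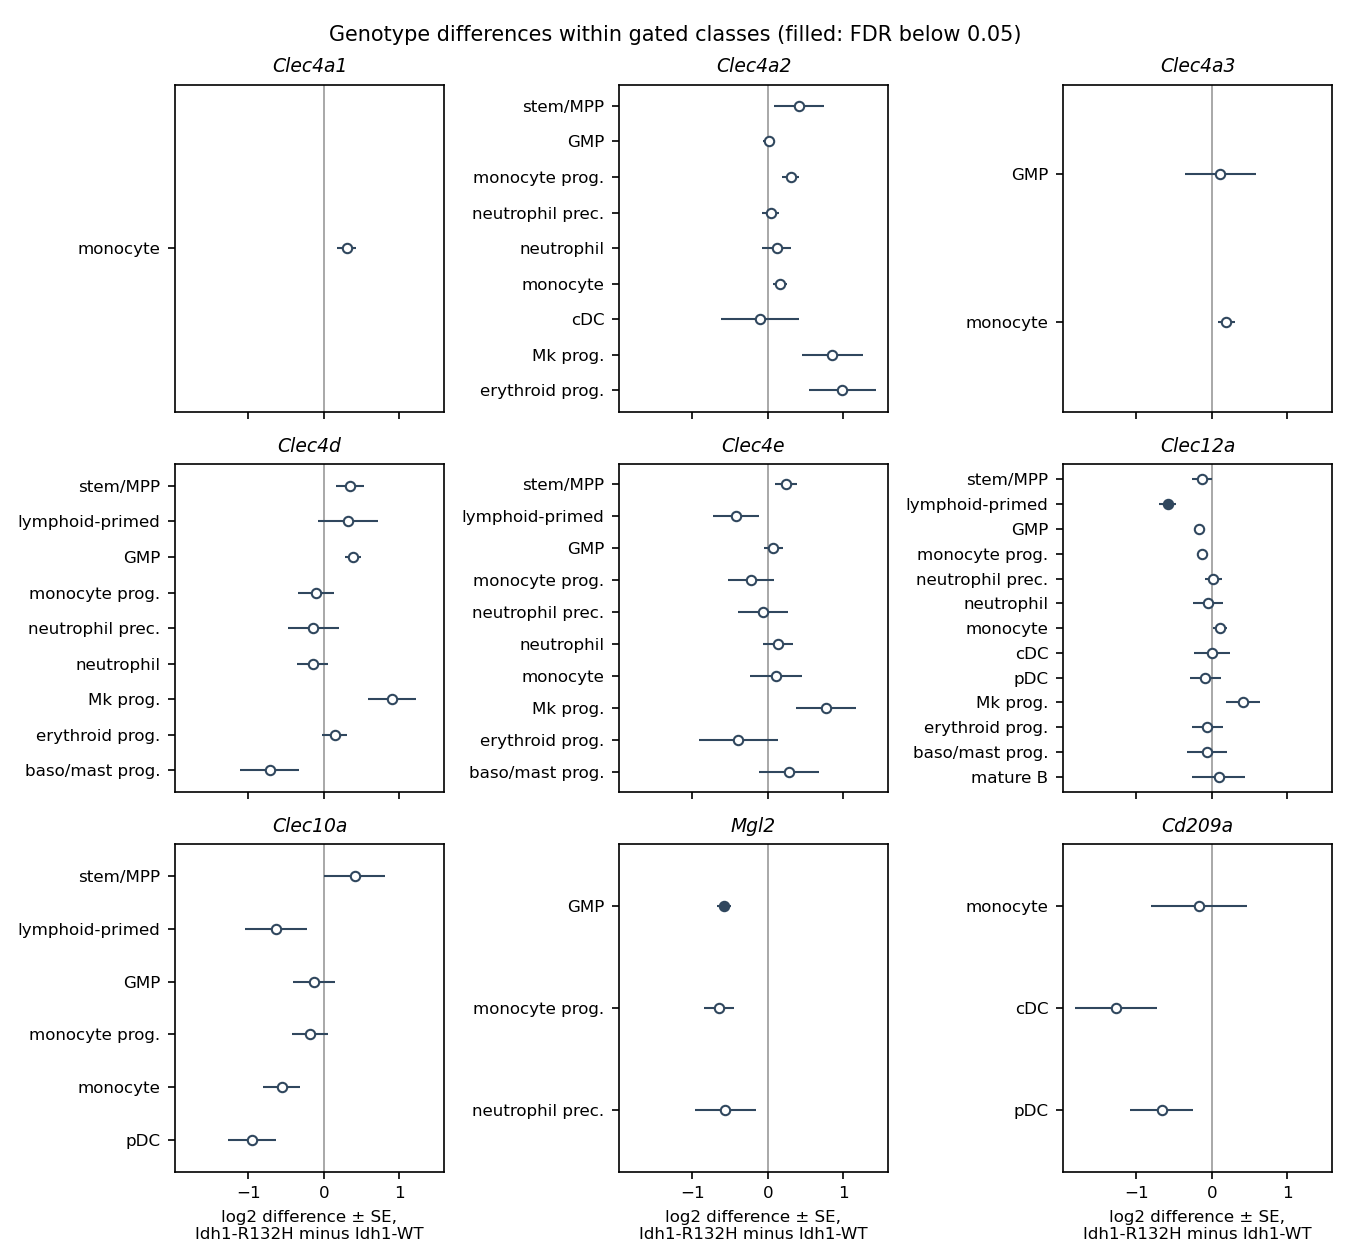
Log2 differences ± SE (Idh1-R132H minus Idh1-WT) for every class in which a gene passed the filter on low counts; filled points passed FDR 0.05. The 2 filled points are Mgl2 in granulocyte-monocyte progenitors (-0.57) and Clec12a in lymphoid-primed progenitors (-0.58).

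Of the signalling partners, Fcer1g and Tyrobp rose in megakaryocyte progenitors of Idh1-R132H marrow. Fcer1g stood at 51.7 and 63.9 CPM in Idh1-WT and at 101 and 81.8 CPM in Idh1-R132H (log2 difference 0.68, SE 0.149, FDR 0.0222), and Tyrobp at 41.6 and 50.6 against 79.5 and 70.2 CPM (0.73, SE 0.159, FDR 0.0222), with 0.25% of all genes called in this class. Markers of some other cells were higher in the same libraries. The 10 monocyte-committed progenitor markers summed to 1063 and 1083 CPM in Idh1-WT and 1516 and 1781 CPM in Idh1-R132H. Of these 10 genes, 8 were higher without overlap. The 14 monocyte markers summed to 854 and 847 against 1096 and 1009.9 CPM. Granulocyte-monocyte progenitor markers (2151 and 2283 against 2773 and 3368 CPM) and lymphoid-primed ones (133.5 and 132.8 against 149.7 and 133.6 CPM) were higher too. So was the gate's own megakaryocyte progenitor set (4296 and 3957 against 5354 and 4829 CPM). Lower without overlap were conventional dendritic markers (255 and 326 against 193 and 242 CPM) and erythroid ones (1677 and 1442 against 1303 and 1348). Without the cells of highest doublet score the Fcer1g difference was 0.51 (FDR 0.394) and the Tyrobp difference 0.26 (FDR 0.878). Both calls were also lost with DESeq2, clusters, library totals, no margin and in cells with Xist alone, without Idh1-WT 1 (FDR 0.298 and 0.296) and without Idh1-R132H 1 (FDR 0.157 and 0.0764). The share of all genes without overlap between the groups was not counted, so the count of markers has no background. The part of these markers and of doublets in the difference was not tested further. In the other 13 classes no member of the 3 partner and lectin lists passed the genotype test.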

How the data were processed

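The deposited matrices are unnormalized UMI counts, made by the authors with Cell Ranger 4.0.0, and Seurat and the builds GRCm38 and mm10 are also named, per the submitters' processing notes. A barcode was kept as a cell from 500 UMIs and 200 genes upward if no more than 10% of its UMIs were mitochondrial, after dropping barcodes that another library held with at least 10 times the UMIs. Scrublet called 179 cells (1.12%) doublets, and these were not removed. A cell joined the class of its highest mean marker z-score if at least 4 markers were detected, the score was at least 0.5 and the next score at least 0.15 lower, and 4288 cells stayed ungated. UMIs were summed per library and class. Genotype was tested within classes of at least 20 cells in every library, and classes against each other with the library as a block, by edgeR 4.0.16 (quasi-likelihood, TMM, filter on low counts) with Benjamini-Hochberg adjustment over all genes tested (FDR, threshold 0.05). The genotype fit was run on simulated counts for granulocyte-monocyte progenitors, lymphoid-primed progenitors, monocytes and neutrophils. The class and genotype by class fits were not simulated. DESeq2 1.42.0, Leiden clusters (scanpy 1.11.5), other filters, scalings, replicate blocks and leaving out each library were alternatives. The genes described, the marker sets and the lists were chosen with earlier results of these data known. The text names every listed gene measured, and of the other lists those with the smallest p in a comparison. Same-numbered samples had deviations correlated at -0.14 to 0.10 over 14 classes. With 2 libraries per group this cannot show whether same-numbered libraries were handled together. The same-numbered Idh1-WT 1 and Idh1-R132H 1 shared 345 barcodes, and other pairs of libraries 13 to 33. The main genotype test was run without pairing. Intervals are exact (95%) and, like the floor of 3 counts, cover counting error only. In bulk sums fewer cells of a type and less RNA per cell cannot be told apart within a class.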

Additional observations from a re-analysis of the deposited data

How the results depend on the processing

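The 41 called class differences of the lectin genes were recomputed under 18 alternatives each, giving 738 values, of which 711 kept their direction and their side of the threshold, 24 lost the call and 3 reversed. The reversed values were Cd209a in monocytes against conventional dendritic cells with clusters (1.08), Clec4a2 in monocytes against neutrophils with library totals (0.068) and Clec4a2 in precursors against neutrophils with clusters (-0.21), and the cause was not tested. Leaving out each library, the calls against conventional dendritic cells numbered 5 each time, against plasmacytoid dendritic cells 5 to 6, and in precursors against neutrophils 5 to 7. The members called by genotype (2) numbered 5 with clusters, 0 in cells with Xist alone, 5 with no filter on low counts, 1 with DESeq2, and 2 to 4 with a library left out. In granulocyte-monocyte progenitors the 48 genes called became 83 with clusters, 15 in cells with Xist alone, 81 with library totals, 154 with no filter, 30 with DESeq2, 116 with the crossed replicate block and 64 to 218 with a library left out. In lymphoid-primed progenitors the 12 became 5 at 1000 UMIs, 6 at 5% mitochondrial UMIs, 1 with clusters, 2 with the larger margin, 2 with none, 6 with free RNA subtracted, 4 with shared barcodes kept, 2 with high doublet scores removed, 1 in cells with Xist alone, 1 with DESeq2, 19 with the crossed replicate block and 6 to 23 with a library left out. The replicate block called 323 genes over all classes, the crossed pairing 400 and the fit without a block 161. The shared barcodes, doublet score, Xist and crossed alternatives were chosen after seeing the data. Classes of about 100 cells limit what could be detected in dendritic cells.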
